A study of Homo sapiens with 6 samples.

Results

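The genes described here are 31 human genes of cholesterol synthesis, uptake and sterol control, taken by gene name from a deposited table of raw counts that holds 58735 genes. They comprise 19 enzymes that build cholesterol and 12 genes that sense, move or export sterols. All 31 names were found, and 30 of these genes had enough counts to be tested. The table came from poly(A)-selected RNA of ACHN, a long-established human kidney carcinoma cell line that the labels give as wild type and as clear cell renal cell carcinoma. Cells treated with curcumol, a sesquiterpenoid found in Curcuma rhizomes, gave 3 libraries, and control cells gave 3. The labels call the control a vehicle control, the design text says that it received no drug, and neither dose nor time is given in the sources used here. The labels describe the libraries of a group as independent biological replicates, and the stated interest of the study was glycolysis and malignant behaviour.

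Cholesterol is built from acetyl-CoA through mevalonate, isoprenoid diphosphates, squalene and lanosterol. When sterols in the endoplasmic reticulum are scarce, SCAP escorts the precursors of the SREBP transcription factors to the Golgi, where they are cut and released to switch on synthesis and uptake genes, and INSIG proteins hold the SCAP complex back when sterols are plentiful. The liver X receptors, LXR alpha and LXR beta, respond to oxysterols and switch on genes that export cholesterol or limit its uptake. In the kidney, clear cell carcinomas are known for storing cholesterol esters and other lipids.

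Within the synthesis pathway the mRNAs did not move one way. HMGCS1, IDI1, MSMO1 and SC5D were about 3-fold to 7-fold higher in curcumol, while PMVK, LSS and TM7SF2 were at least 2-fold lower and 5 of the 19 enzymes did not pass the test in either direction. The regulators INSIG1 and INSIG2, the sterol carrier STARD4 and the ubiquitin ligase MYLIP were also at least 2-fold higher, and NR1H3, which encodes LXR alpha, was lower. By the quasi-likelihood test of edgeR, with an adjusted p threshold of 0.05, 14 of the 30 tested genes had higher and 9 had lower levels in curcumol than in control. These 23 genes are 76.7% of those tested, against 79.7% of all 15160 genes tested. Higher genes made up 46.7% of the group against 39.4% of all genes, and lower genes 30.0% against 40.3%. The share of called genes thus lay near that of the whole table. Scaling by library totals gave 11 higher and 12 lower (36.7% and 40.0%), against 31.8% and 48.6% of all genes on that scale. An offset for GC content gave 19 higher and 8 lower (63.3% and 26.7%), against 38.4% and 41.0% of all genes with the same offset. The curcumol and control libraries did not overlap in 23 of the 30 tested genes (76.7%), the same 23, against 81.0% of all genes tested.

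The DNA just upstream of an annotated transcription start is shown for 7 of these genes, because SREBPs act there together with the factor NF-Y. HMGCS1, MSMO1, INSIG1 and SC5D rose, LSS and FDPS fell, and SREBF2 is the one with a match to the sterol response element core. The sequences are from RefSeq (GRCh38.p14), run 5′ to 3′ on the strand of the gene and cover 250 bases that end at the base before an annotated start. HMGCS1 and SC5D have 2 windows each, and only those given here are printed. Gene coordinates further below come from GENCODE. By these each stretch reaches past the start of its gene, and the SC5D stretch lies wholly past the start at 121292453. Capitals mark CCAAT, the letters bound by NF-Y, CACGTG, an E-box that SREBPs can also bind, and TCACNCCAC, the core of the classical sterol response element, each in either orientation. The windows are chr5:43313413-43313662 (minus strand) for HMGCS1, chr4:165327419-165327668 (plus) for MSMO1, chr7:155297628-155297877 (plus) for INSIG1 and chr11:121292521-121292770 (plus) for SC5D. They are chr21:46228775-46229024 (minus) for LSS, chr1:155308616-155308865 (plus) for FDPS and chr22:41832855-41833104 (plus) for SREBF2.
HMGCS1: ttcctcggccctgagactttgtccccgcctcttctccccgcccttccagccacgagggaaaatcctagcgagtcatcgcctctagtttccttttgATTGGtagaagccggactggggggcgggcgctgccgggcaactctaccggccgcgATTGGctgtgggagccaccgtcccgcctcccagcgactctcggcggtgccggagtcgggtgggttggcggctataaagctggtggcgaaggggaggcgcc
MSMO1: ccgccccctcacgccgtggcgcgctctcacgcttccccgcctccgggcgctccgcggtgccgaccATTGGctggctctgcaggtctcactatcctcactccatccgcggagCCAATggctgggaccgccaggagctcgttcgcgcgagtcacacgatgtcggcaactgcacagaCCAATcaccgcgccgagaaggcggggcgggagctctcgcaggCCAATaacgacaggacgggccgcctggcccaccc
INSIG1: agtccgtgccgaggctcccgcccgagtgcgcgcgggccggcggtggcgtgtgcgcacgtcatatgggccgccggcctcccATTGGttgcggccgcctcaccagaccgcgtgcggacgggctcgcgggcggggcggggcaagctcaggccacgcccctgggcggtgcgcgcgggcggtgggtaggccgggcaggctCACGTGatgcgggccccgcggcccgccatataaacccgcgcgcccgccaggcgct
SC5D: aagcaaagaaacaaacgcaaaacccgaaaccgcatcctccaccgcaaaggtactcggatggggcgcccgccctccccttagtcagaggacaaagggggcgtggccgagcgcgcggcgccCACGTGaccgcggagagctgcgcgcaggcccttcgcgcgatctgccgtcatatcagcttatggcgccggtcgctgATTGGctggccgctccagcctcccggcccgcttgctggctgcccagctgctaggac
LSS: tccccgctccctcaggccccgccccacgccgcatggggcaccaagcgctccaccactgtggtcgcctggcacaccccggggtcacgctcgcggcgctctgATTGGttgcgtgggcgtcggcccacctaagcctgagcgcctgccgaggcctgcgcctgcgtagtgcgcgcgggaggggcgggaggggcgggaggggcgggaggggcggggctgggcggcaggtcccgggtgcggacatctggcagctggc
FDPS: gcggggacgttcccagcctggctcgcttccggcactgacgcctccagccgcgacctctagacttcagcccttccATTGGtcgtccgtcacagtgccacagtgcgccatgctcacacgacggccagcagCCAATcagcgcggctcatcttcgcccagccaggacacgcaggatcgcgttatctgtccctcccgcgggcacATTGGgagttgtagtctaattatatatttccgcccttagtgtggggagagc
SREBF2: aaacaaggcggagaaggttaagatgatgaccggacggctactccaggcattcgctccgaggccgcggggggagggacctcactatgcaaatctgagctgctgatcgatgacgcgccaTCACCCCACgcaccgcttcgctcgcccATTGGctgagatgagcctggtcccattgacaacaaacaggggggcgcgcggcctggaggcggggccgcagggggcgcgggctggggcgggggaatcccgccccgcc

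CCAAT stood in each of the 7 printed stretches, 4 times in MSMO1, 3 times in FDPS, and 2 times in HMGCS1. The E-box letters were seen in the stretches of INSIG1 and SC5D. RefSeq promoter windows, from 250 bases before to 50 after a start, were at hand for 27 of the 31 genes, some with several starts. At least 1 window held CCAAT in 18 of these 27 genes (66.7%), against 42.9% of 10546 tested genes with a window. Per window the share was 55.6% of 36 windows of the group and 34.6% of all 35116 windows. CCAAT stood in windows of genes that rose, such as IDI1 and STARD4, and of genes that fell, such as TM7SF2, DHCR7 and NR1H3. CACGTG was in a window of 5 of the 27 genes, namely LSS, SC5D, INSIG1, SCAP and ABCA1, or 18.5% against 12.6% of the tested genes. TCACNCCAC was in 1 of the 27, SREBF2, or 3.7% against 1.45% of the tested genes. In the printed stretches no match of one motif overlapped a match of another, and a match is one of letters only.

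The libraries held 16962012 to 17827433 counts, and the text gives levels as CPM, that is counts scaled to a common library size, with TMM factors that correct for differences in composition. These factors were 0.912 ± 0.0103 in curcumol and 1.10 ± 0.00719 in control (SD, n = 3 each). Log2 fold changes are given ± SE and set curcumol over control. The median over all genes tested was -0.02, and -0.28 when scaled by library totals alone, so every value below would stand about 0.27 lower on that scale. In bulk RNA, fewer cells that express a gene and less RNA per cell cannot be told apart. All 7 renal line markers were detected, with PAX8 at 60.1 ± 3.38 CPM in curcumol and 192 ± 4.49 CPM in control, and a summed level of 3090 to 3570 CPM in curcumol and 4550 to 4920 CPM in control. PAX2, KRT8, KRT18, KRT19, VIM and CDH2 were also lower in curcumol, with log2 fold changes between -0.24 for KRT18 and -1.05 for PAX2, although KRT18 and KRT19 stood at 0.14 and 0.02 with a GC content offset. Leukocyte markers summed to 0.576 to 1.0 CPM in curcumol and 0 to 0.155 CPM in control, with CD3E at 0 in all libraries and PTPRC at 0 in control. Endothelial markers summed to 0.128 to 0.821 CPM in curcumol and 0.0516 to 0.155 CPM in control, with PECAM1 and KDR at 0 in control. Fibroblast markers summed to 5.83 to 13.9 CPM in curcumol and 7.07 to 8.29 CPM in control, highest in curcumol replicate 2, and without that library all 30 tested genes kept their direction and their call. Hepatocyte markers summed to 11.1 to 14.3 CPM in curcumol and 21.4 to 31.8 CPM in control, nearly all of it SERPINA1, with ALB below 1.1 CPM and TTR at 0 in every library. The part of these marker differences in the results below was not tested.

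**Figure D1:**
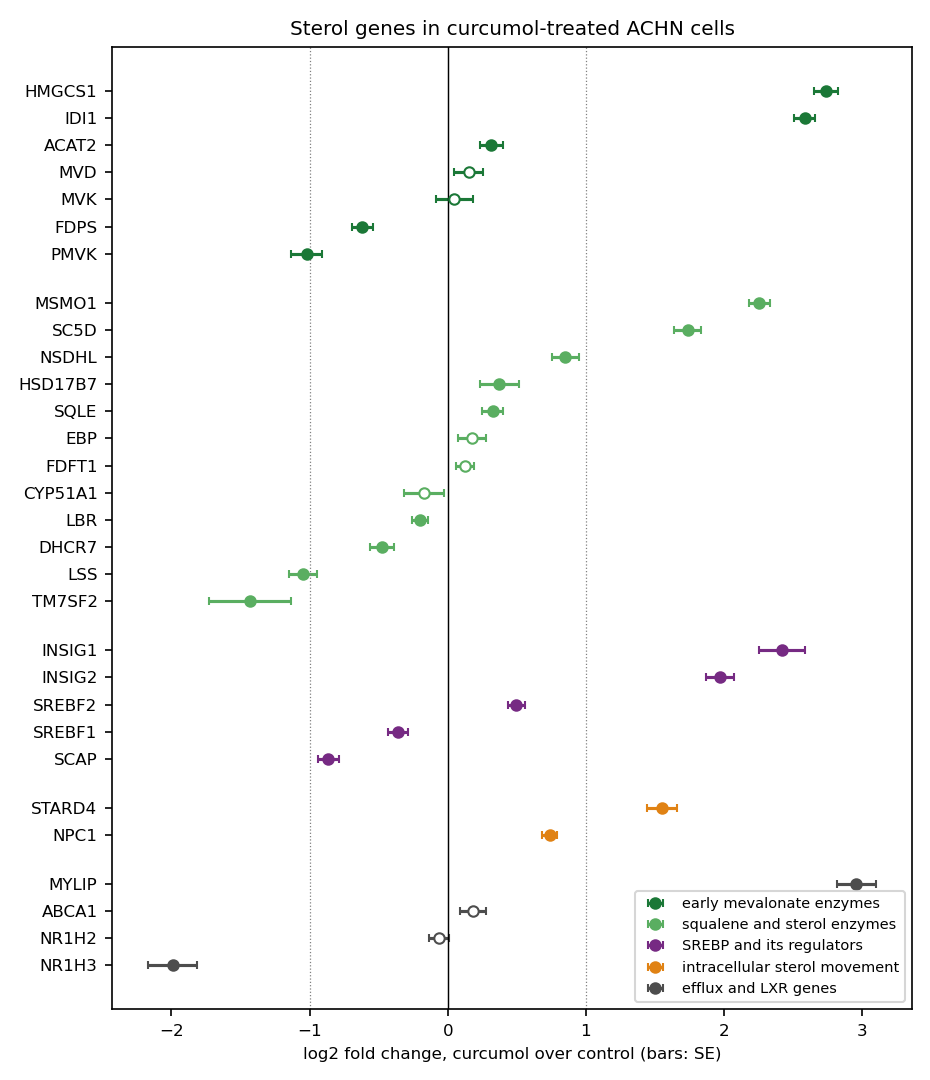
Log2 fold change of each of the 30 tested sterol genes, curcumol over control, with SE bars, grouped by role. Filled points passed the edgeR test, open points did not, and dotted lines mark a 2-fold change. Each role but the pair of sterol carriers has points on both sides of 0, from MYLIP at 2.96 to NR1H3 at -1.99.

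The enzymes that turn acetyl-CoA into farnesyl diphosphate included the largest rises among the enzymes. Among 7 such genes 3 rose (42.9%), 2 fell (28.6%) and 2 did not pass, against 39.4% higher and 40.3% lower of all genes tested. The median log2 fold change was 0.15. With the GC content offset 5 were higher and 2 lower (71.4% and 28.6%), against 38.4% and 41.0% of all genes. HMGCS1, the cytosolic HMG-CoA synthase that commits acetyl groups to mevalonate (ENSG00000112972, chromosome 5, 43289395 to 43313512, GRCh38), had 164.7, 180.1 and 194.8 CPM in curcumol, against 27.3, 23.3 and 30.25 CPM in control. The lowest curcumol library was thus more than 5-fold above the highest control library. The log2 fold change was 2.74 ± 0.09, or 6.67-fold (adjusted p = 1.32e-16, edgeR). IDI1, the isomerase that interconverts the 5-carbon isoprenoid units (chromosome 10, 1039152 to 1049170), had 147.6, 166.3 and 173.5 CPM in curcumol, against 25.4, 27.7 and 28.1 CPM in control. Its groups were as widely apart, with a log2 fold change of 2.58 ± 0.08, or 5.997-fold. Antisense RNAs overlap both genes, and because no source says whether strand was used in counting, reads of such pairs cannot be told apart. IDI2-AS1, which shares 643 exonic bases with IDI1, had 22, 22 and 27 counts in curcumol and 0 in each control library, against 7700 counts for IDI1 in curcumol as a whole and 1554 in control.

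The other enzymes of this part rose less, fell or did not pass. PMVK, the phosphomevalonate kinase (chromosome 1, 154924734 to 154936991), had 15.9, 14.1 and 14.7 CPM in curcumol, against 35.5, 28.6 and 26.6 CPM in control. All curcumol libraries were lower, at a log2 fold change of -1.02 ± 0.11 (adjusted p = 4.02e-08, edgeR), which sits at the 2-fold line and was -0.90 without control replicate 1. FDPS, the farnesyl diphosphate synthase, also on chromosome 1 (155308748 to 155320666), had 62.7, 61.5 and 56.3 CPM in curcumol, against 90.7, 99.8 and 86.4 CPM in control. It fell by 0.62 ± 0.07 on the log2 scale (SE), and stood at -0.22 with a GC content offset. FDPS has 8 named pseudogenes, but these held 41 counts in curcumol and 20 in control, against 2850 counts for FDPS itself in curcumol and 5294 in control. ACAT2, the cytosolic thiolase that joins acetyl units, averaged 55.6 ± 4.66 CPM in curcumol and 44.7 ± 2.42 CPM in control (SD, n = 3 each), a log2 fold change of 0.32 ± 0.08. With library totals ACAT2 stood at 0.05 and did not pass (edgeR adjusted p = 0.58), and it shares 397 exonic bases with the chaperonin gene TCP1 on the other strand. TCP1 had 13777 to 14790 counts in curcumol and 7214 to 7523 in control. Mevalonate kinase MVK averaged 10.6 ± 0.593 CPM in curcumol and 10.2 ± 1.09 CPM in control, and the decarboxylase MVD 22.5 ± 1.78 CPM in curcumol and 20.3 ± 1.99 CPM in control (SD, n = 3 each). Neither passed, at 0.05 ± 0.13 (edgeR adjusted p = 0.741) for MVK and 0.15 ± 0.10 (edgeR adjusted p = 0.189) for MVD. With a GC content offset both were higher and passed, at 0.57 for MVK and 0.89 for MVD. MVK shares 306 exonic bases with MMAB on the other strand. MMAB had 76, 39 and 25 counts in curcumol, against 311, 290 and 336 in control. The part of MMAB reads in the level of MVK was not tested.

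**Figure D2:**
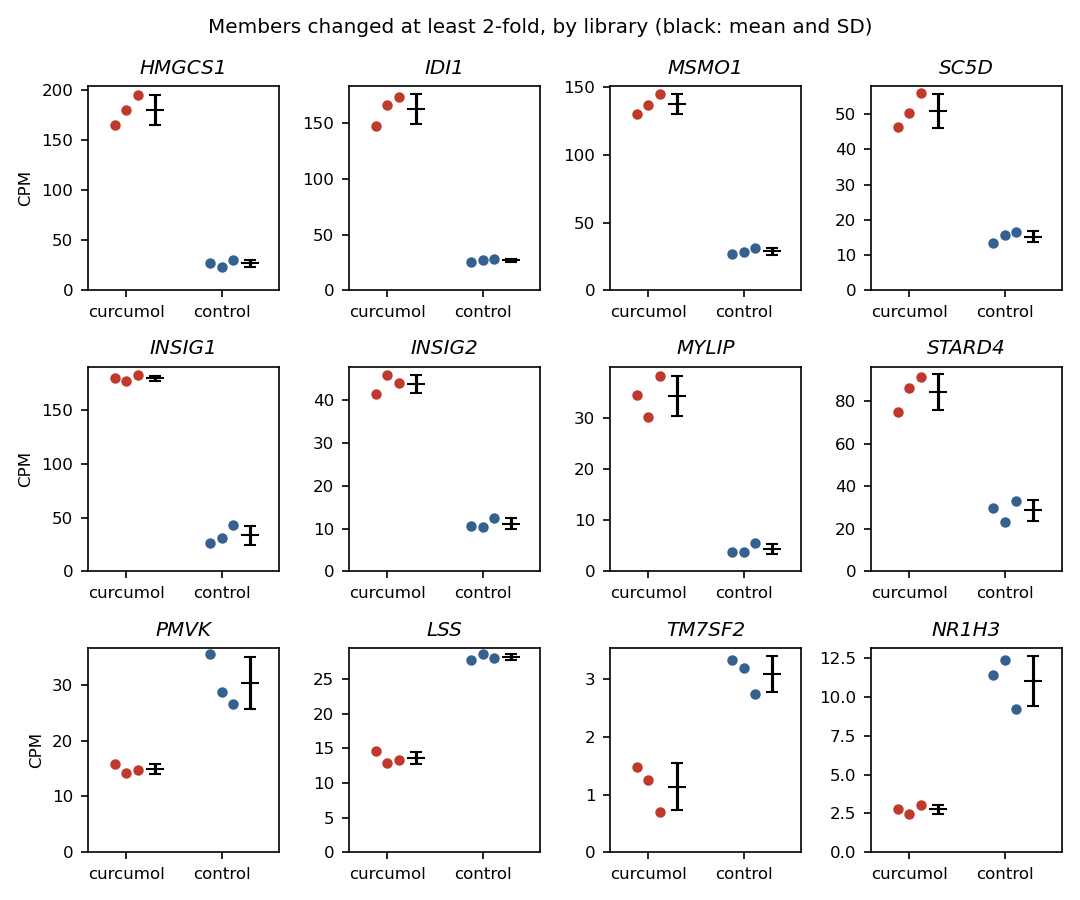
CPM of the 12 sterol genes that changed at least 2-fold, for each of the 3 curcumol (red) and 3 control (blue) libraries, with the mean and SD in black; every axis starts at 0. The groups do not overlap in any panel, but these genes were picked for the size of their change. Over all genes tested 81.0% were separated. The curcumol libraries are the higher ones in the upper 8 panels and the lower ones in PMVK, LSS, TM7SF2 and NR1H3.

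In the part of the pathway that leads from squalene to cholesterol, MSMO1 and SC5D stood out among the enzymes that rose. Of these 12 genes 5 rose (41.7%), 4 fell (33.3%) and 3 did not pass, against 39.4% higher and 40.3% lower of all genes tested. The median was 0.15, and with library totals 3 were higher and 6 lower. MSMO1, the oxygenase that starts removal of methyl groups from sterols (chromosome 4, 165327623 to 165343160), had 130.4, 137 and 145 CPM in curcumol, against 26.8, 28.1 and 31.4 CPM in control. Its log2 fold change was 2.26 ± 0.08, or 4.78-fold (adjusted p = 1.32e-16, edgeR). SC5D, the desaturase that acts late in the pathway (chromosome 11, 121292453 to 121308694), had 46.3, 50.3 and 55.8 CPM in curcumol, against 13.5, 15.7 and 16.5 CPM in control. Its log2 fold change was 1.74 ± 0.10 (SE). NSDHL, the dehydrogenase that acts after MSMO1, had 30.2, 27.8 and 30.6 CPM in curcumol, against 15.5, 18.1 and 15.5 CPM in control, a log2 fold change of 0.85 ± 0.10. All 3 genes were higher in each curcumol library than in any control library.

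The enzymes that form squalene and close its rings had smaller differences or fell. FDFT1, squalene synthase, averaged 114.8 ± 5.46 CPM in curcumol and 105.2 ± 5.12 CPM in control (SD, n = 3 each) and did not pass (0.13 ± 0.07, edgeR adjusted p = 0.0841), and it stood at -0.14 with library totals (edgeR adjusted p = 0.0494). FDFT1 passed as higher without curcumol replicate 3, at 0.17 (edgeR adjusted p = 0.0357), and with a GC content offset, at 0.13 (edgeR adjusted p = 0.0479). SQLE, the squalene epoxidase, averaged 64.9 ± 3.98 CPM in curcumol and 51.8 ± 2.22 CPM in control, a log2 fold change of 0.32 ± 0.08. That call was lost with library totals (0.06, edgeR adjusted p = 0.478). LSS, which closes the rings to lanosterol (chromosome 21, 46188141 to 46228824), had 14.6, 12.9 and 13.4 CPM in curcumol, against 27.8, 28.7 and 28.1 CPM in control. Its curcumol libraries were all lower, at -1.05 ± 0.10 (adjusted p = 3.27e-09, edgeR). With a GC content offset LSS stood at -0.53.

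Lanosterol is then demethylated and reduced. CYP51A1, the lanosterol demethylase, averaged 10.1 ± 0.0286 CPM in curcumol and 11.4 ± 2.38 CPM in control and did not pass (-0.17 ± 0.15, edgeR adjusted p = 0.282), while it was lower with library totals (-0.44) and with a GC content offset (-0.57). It shares 2844 exonic bases, 79.3% of its exon length, with the annotated gene AC000120.2 on the same strand, which has 0 counts in all 6 libraries, so how reads in shared exons were counted bears on its level. The sterol reductases TM7SF2 and LBR act on the same double bond. TM7SF2 had 23, 20 and 11 counts in curcumol, against 62, 62 and 53 in control, a log2 fold change of -1.43 ± 0.29 (adjusted p = 0.000152, edgeR) on few reads. LBR, which also anchors lamin B at the nuclear membrane, was far more abundant, with 196.5, 208.5 and 198.1 CPM in curcumol, against 213, 235 and 245 CPM in control. It fell by 0.20 ± 0.06 on the log2 scale (SE), and the groups were separated. With library totals LBR stood at -0.47 and with a GC content offset at -0.79. HSD17B7, a reductase of the demethylation steps, had 10.9, 8.60 and 10.9 CPM in curcumol, against 7.69, 8.05 and 7.74 CPM in control. Its log2 fold change of 0.37 ± 0.14 (edgeR adjusted p = 0.0204) was lost without curcumol replicate 1 (0.0695), curcumol replicate 3 (0.0723), control replicate 1 (0.0594) or control replicate 3 (0.0543), these being adjusted p-values of the same test, and with DESeq2 (0.0794). HSD17B7 stood at 0.11 with library totals and at -0.02 with a GC content offset. EBP, an isomerase of the sterol ring, averaged 30.1 ± 3.94 CPM in curcumol and 26.7 ± 0.587 CPM in control and did not pass (0.18 ± 0.10, edgeR adjusted p = 0.106), while it passed as higher with a GC content offset (0.43, edgeR adjusted p = 6.18e-05) and without curcumol replicate 3 (0.27, edgeR adjusted p = 0.0218). DHCR7, which makes cholesterol in the last step of one branch, averaged 27.0 ± 1.42 CPM in curcumol and 37.6 ± 2.81 CPM in control, a fall by 0.48 ± 0.09 on the log2 scale. With a GC content offset DHCR7 stood at 0.05 and did not pass (edgeR adjusted p = 0.633).

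Levels of different genes are compared per kb of exon, using all annotated exons joined, which can exceed the length of the mRNA. In curcumol the highest enzyme by this measure was MSMO1 at 47.6 ± 2.55 CPM per kb, followed by HMGCS1 (38.3 ± 3.19), LBR (38.2 ± 1.24) and IDI1 (37.4 ± 3.08), which did not differ from each other beyond their spread. In control the order was LBR at 43.9 ± 3.12 CPM per kb, then FDPS (24.8 ± 1.85), PMVK (23.6 ± 3.63) and FDFT1 (20.2 ± 0.984), of which PMVK differed from neither FDPS nor FDFT1 beyond their spread (SD, n = 3 each). HMGCS1 ranked 2 of 19 in curcumol and 12 of 19 in control. TM7SF2 was the lowest of the 19 in both groups, at 0.335 ± 0.118 CPM per kb in curcumol and 0.907 ± 0.0923 CPM per kb in control. Summed over the 19 enzymes, the level was 1172, 1209 and 1209 CPM in curcumol, against 784.8, 819.7 and 840.0 CPM in control, a ratio of 1.47. HMGCS1, IDI1 and MSMO1 together made up 37.8%, 40.0% and 42.5% of that sum in the curcumol libraries, against 10.1%, 9.65% and 10.7% in the control libraries.

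**Figure D3:**
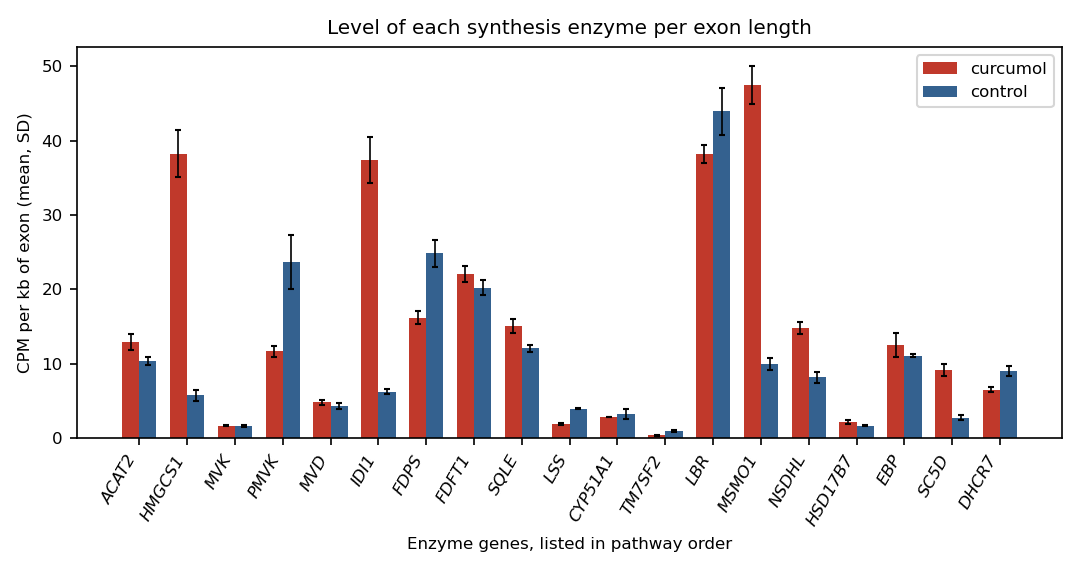
Mean level of each of the 19 synthesis enzymes in CPM per kb of exon, in curcumol (red) and control (blue), with SD bars over 3 libraries each, listed from ACAT2 to DHCR7 in pathway order. The 4 tallest curcumol bars are those of MSMO1, HMGCS1, LBR and IDI1, at 37.4 to 47.6 CPM per kb; in control LBR stands at 43.9 CPM per kb and the other 3 at 5.74 to 9.95 CPM per kb.

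The genes that set the activity of SREBPs moved apart as well. In this group 3 of 5 rose and 2 fell, against 39.4% higher and 40.3% lower of all genes tested. With the GC content offset 4 were higher and 1 lower, against 38.4% and 41.0% of all genes. Counts of 5 genes say little beside those shares. The median log2 fold change was 0.50. INSIG1, an SREBP target whose product retains SCAP in the endoplasmic reticulum (ENSG00000186480, chromosome 7, 155297776 to 155310235), had 179.8, 177.8 and 182.6 CPM in curcumol, against 26.0, 31.5 and 43.2 CPM in control. The curcumol libraries were nearly equal and the control libraries spread, and the log2 fold change was 2.42 ± 0.17, or 5.36-fold (adjusted p = 5.04e-06, edgeR). INSIG2, the paralog with the same role (chromosome 2, 118088452 to 118110997), had 41.4, 45.7 and 44.0 CPM in curcumol, against 10.6, 10.3 and 12.5 CPM in control. It rose by 1.97 ± 0.10 (adjusted p = 1.06e-13, edgeR). SCAP, the escort (chromosome 3, 47413694 to 47477126), had 32.8, 32.4 and 31.4 CPM in curcumol, against 59.4, 59.6 and 56.9 CPM in control. Each curcumol library was lower, at -0.86 ± 0.08 (adjusted p = 1.07e-09, edgeR), and with a GC content offset the value was -0.17 (edgeR adjusted p = 0.0277).

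The SREBP genes themselves went in opposite directions, except with a GC content offset, where both were higher. SREBF2, which encodes the SREBP that mainly drives cholesterol genes, had 120.2, 120.2 and 122.4 CPM in curcumol, against 82.97, 87.2 and 86.7 CPM in control. It rose by 0.50 ± 0.06 (adjusted p = 2.31e-07, edgeR), and stood at 0.23 with library totals and 0.96 with a GC content offset. SREBF1, whose products mainly drive fatty acid genes, had 69.7, 75.0 and 67.2 CPM in curcumol, against 87.2, 86.5 and 97.8 CPM in control. It fell by 0.36 ± 0.07 on the log2 scale (adjusted p = 0.00013, edgeR), but with a GC content offset it was higher, at 0.35 (edgeR adjusted p = 3.2e-05). The counts do not separate the transcripts for its SREBP isoforms. SREBF1 shares 556 exonic bases with RAI1 on the other strand, which had 505 to 539 counts in curcumol and 1615 to 1759 in control.

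Both genes for sterol movement inside the cell rose, as did 39.4% of all genes tested. STARD4, a soluble sterol carrier (chromosome 5, 111496033 to 111512590), had 74.9, 86.2 and 91.6 CPM in curcumol, against 29.7, 23.3 and 33.0 CPM in control. Its log2 fold change was 1.55 ± 0.11 (adjusted p = 2.81e-10, edgeR), and 0.83 with a GC content offset. NPC1, which exports cholesterol from lysosomes (chromosome 18, 23506184 to 23586898), had 342.3, 324.9 and 335.9 CPM in curcumol, against 193.9, 200.9 and 206.5 CPM in control. It rose by 0.74 ± 0.06 (adjusted p = 6.04e-11, edgeR), with all curcumol libraries above all control libraries. NPC1 shares 604 exonic bases with RMC1 on the other strand, which had 770 to 871 counts in curcumol and 459 to 503 in control.

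Among the efflux and LXR genes, 1 of 4 tested rose (25.0%) and 1 fell (25.0%), against 39.4% and 40.3% of all genes tested. The counts were 1 and 2 with library totals and 2 and 1 with the GC content offset. MYLIP, an LXR target also known as IDOL that marks lipoprotein receptors for breakdown (ENSG00000007944, chromosome 6, 16129125 to 16148248), had 34.5, 30.3 and 38.1 CPM in curcumol, against 3.82, 3.82 and 5.58 CPM in control. This was the largest change of the group, at 2.96 ± 0.14, or 7.77-fold (adjusted p = 2.94e-14, edgeR). NR1H3, the gene of LXR alpha (ENSG00000025434, chromosome 11, 47248300 to 47269032), had 44, 39 and 48 counts in curcumol, against 212, 240 and 179 in control. That is 2.82, 2.45 and 3.03 CPM in curcumol and 11.4, 12.4 and 9.24 CPM in control. It was the largest fall, at -1.99 ± 0.18 (adjusted p = 1.02e-09, edgeR), or 3.97-fold lower. NR1H3 shares 189 exonic bases with ACP2 on the other strand, and reads of this pair cannot be told apart. ACP2 had 136, 150 and 143 counts in curcumol, against 385, 429 and 405 in control, more than NR1H3 in every library. The part of ACP2 reads in the fall was not tested.

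The LXR target ABCA1, which loads cholesterol onto apolipoproteins, showed no difference that passed the test. ABCA1 had 37.1, 45.9 and 39.8 CPM in curcumol, against 33.7, 34.1 and 40.5 CPM in control, and the groups overlapped. Its value of 0.18 ± 0.10 did not pass (edgeR adjusted p = 0.0876), although it did without curcumol replicate 1 (0.25, edgeR adjusted p = 0.0183) and without control replicate 3 (0.26, edgeR adjusted p = 0.0262). NR1H2, the gene of LXR beta, averaged 52.5 ± 1.503 CPM in curcumol and 55.0 ± 1.61 CPM in control (SD, n = 3 each) and did not pass (-0.07 ± 0.07, edgeR adjusted p = 0.414). With a GC content offset it was higher, at 0.57 (edgeR adjusted p = 7.78e-09), and with library totals lower, at -0.33 (edgeR adjusted p = 0.000345). ABCG1, which passes cholesterol to lipoprotein particles, had 2, 3 and 0 counts in curcumol and 0 in each control library, too few to be tested.

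Set side by side, the 19 enzymes had 8 higher and 6 lower genes (5 and 8 with library totals) and a median of 0.15. That is 42.1% higher and 31.6% lower, against 39.4% and 40.3% of all genes tested. The 11 tested genes of regulation, movement, efflux and LXR had 6 higher and 3 lower (8 and 2 with the GC content offset) and a median of 0.50, or 54.5% higher and 27.3% lower. A change of at least 2-fold that passed was seen in 8 of the 30 genes that were higher (26.7%, against 21.3% of all genes tested) and 4 that were lower (13.3%, against 23.1%). The 8 were split evenly, with HMGCS1, IDI1, MSMO1 and SC5D among the enzymes and INSIG1, INSIG2, STARD4 and MYLIP among the other genes. No test of the enzymes against the other genes was made, since members of a list are not replicates.

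The genes differed in base composition along with their change. Across the 30 tested genes the log2 fold change fell with the GC content of the longest transcript (Spearman rho -0.68), and across 15154 tested genes it did so more loosely (rho -0.34); genes share libraries, so these are descriptions. The 8 genes that rose at least 2-fold had GC contents between 34.2% for STARD4 and 46.0% for INSIG1, while PMVK, LSS, TM7SF2 and NR1H3 lay between 55.4% for NR1H3 and 64.2% for TM7SF2. All tested genes were split by GC content into 3 equal groups. In the lowest group 7 of 9 sterol genes rose and 1 fell, against 56.0% and 23.7% of all genes of that group. In the middle group 6 of 8 rose and none fell, against 39.1% and 39.4%. In the highest group 1 of 13, SREBF2, rose and 8 fell, against 23.0% and 57.8%. An offset that removes the trend with GC content in each library left the 8 genes with the largest rises at lower log2 fold changes. These were 2.26 for HMGCS1, 2.15 for IDI1, 2.29 for INSIG1, 1.68 for MSMO1, 2.82 for MYLIP, 1.29 for INSIG2, 1.18 for SC5D and 0.83 for STARD4. With it 19 of the 30 genes were higher and 8 lower, and PMVK stood at -0.44 and TM7SF2 at -0.69. Among the 30 genes rho was then -0.36. Exon length had a rho of -0.08 with the change. What part GC content has in these changes was not tested.

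**Figure D4:**
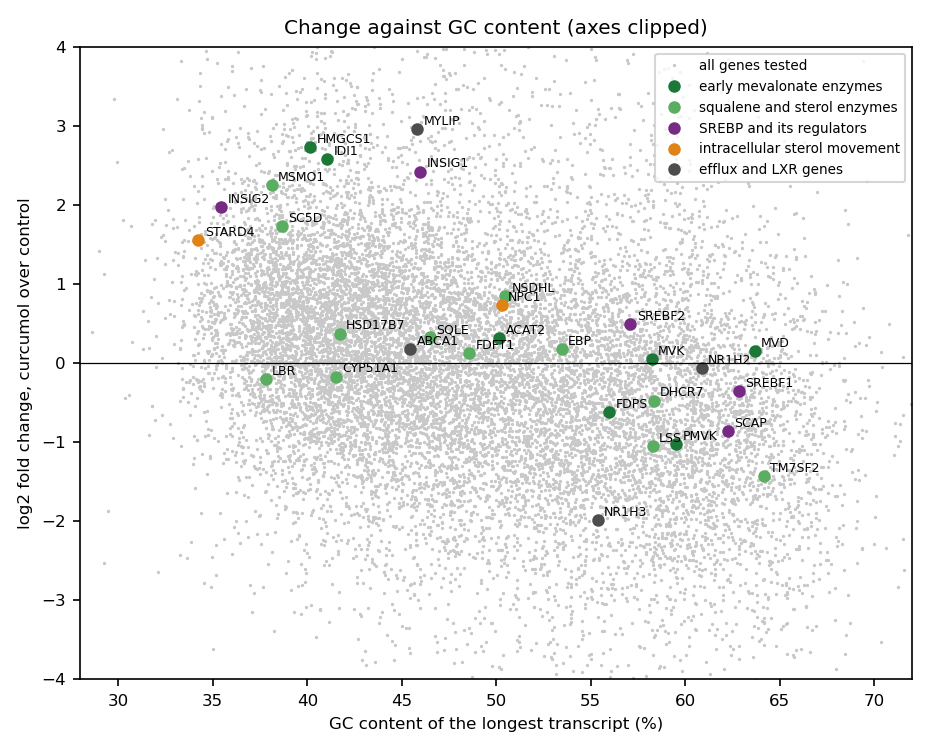
Log2 fold change, curcumol over control, against the GC content of the longest transcript in percent, for all genes tested (grey) and the 30 sterol genes (coloured by role and named); points beyond the axes are not drawn. The genes that rose most lie to the left at 34.2% to 46.0%, and those that fell most lie to the right.

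**Figure D5:**
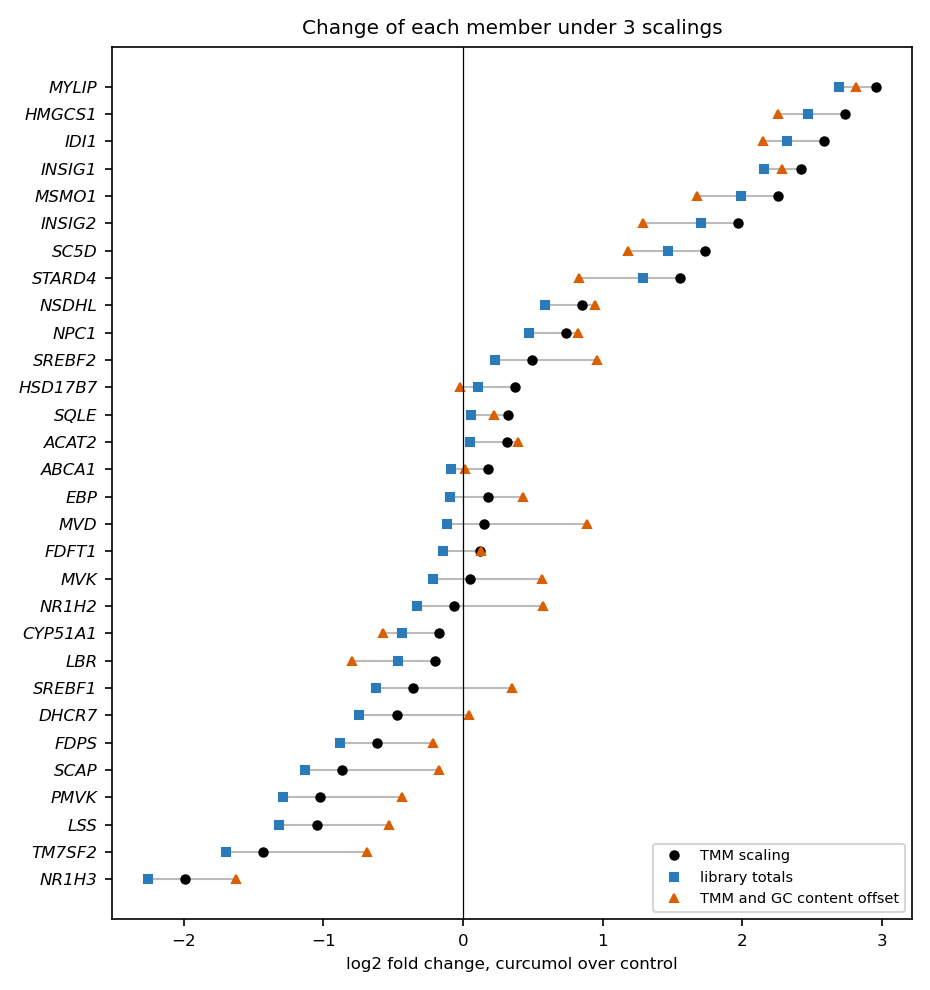
Log2 fold change of the 30 sterol genes, curcumol over control, under TMM scaling (black circles), library totals (blue squares) and TMM with a GC content offset (orange triangles). The rises of MYLIP, HMGCS1, IDI1, INSIG1 and MSMO1 stay above 1.6 in all 3, while MVK, MVD, FDFT1, HSD17B7, EBP, DHCR7, SREBF1, ABCA1 and NR1H2 lie on both sides of 0.

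Among 36 other genes of sterol and isoprenoid biology, 33 were tested, 12 rose, 17 fell and 4 did not pass, with a median of -0.25. Higher genes made up 36.4% and lower genes 51.5%, against 39.4% and 40.3% of all genes tested. The largest rises were those of NPC2, GGPS1 and FNTA. NPC2, the lysosomal partner of NPC1, had 171, 145.6 and 152.8 CPM in curcumol, against 48.1, 50.45 and 53.9 CPM in control, a log2 fold change of 1.62 ± 0.07. GGPS1, which makes the geranylgeranyl donor for protein prenylation, rose by 1.57 ± 0.11, and FNTA, the shared alpha subunit of prenyltransferases, by 1.21 ± 0.07, which was 0.67 with a GC content offset. The largest falls were those of COQ2, GRAMD1B and LRP8. COQ2, which attaches the polyprenyl tail of coenzyme Q, had 3.52, 3.45 and 3.22 CPM in curcumol, against 18.1, 18.6 and 16.3 CPM in control, a log2 fold change of -2.38 ± 0.14. GRAMD1B, which carries cholesterol from the plasma membrane, fell by 2.37 ± 0.26 on the log2 scale at a low level, and LRP8, a lipoprotein receptor, by 2.27 ± 0.09 on the log2 scale. All 6 of these genes were separated between the groups, but they were picked for the size of their change. Of the 33 tested genes of the list, 13 had all curcumol libraries above and 17 had all below the control libraries. Over all genes tested 81.0% were separated. By role, 6 of the 9 nonsterol isoprenoid genes rose and 3 fell. Of 6 genes of sterol-linked protein turnover 3 rose and 3 fell. Among 7 genes of lipoprotein receptors and lysosomal sterol handling 1 rose and 4 fell, and among 6 of sterol movement between membranes 1 rose and 3 fell. Of 2 genes of sterol ester turnover 1 rose and 1 fell, and of 4 oxysterol genes 1 fell. Over all genes tested 39.4% were higher and 40.3% lower, and counts this small say little beside those shares. Both SREBP protease genes, MBTPS1 and MBTPS2, fell, by 0.25 and 0.82 on the log2 scale, and with a GC content offset stood at -0.12 for MBTPS1 and -1.49 for MBTPS2. CYP7B1, CH25H and CYP46A1, of oxysterol metabolism, had too few counts to be tested.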

How the data were processed

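Poly(A)-selected RNA of 3 curcumol and 3 control ACHN libraries was sequenced in pairs on an Illumina instrument, per the labels' protocols. The authors deposited raw counts per gene and library, not normalized. Per the submitters' processing notes the genome was GRCh38 (hg38). The aligner, the counter, the annotation release and whether strand was used: not given in the sources used here. All 58735 identifiers were found in GENCODE 29 (Ensembl 94), which gave coordinates, exon lengths, overlaps and the GC content of the longest transcript.

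Totals were 16962012 to 17827433 counts. No library repeats another: replicates of a group differed by more than sampling noise, with a chi-square of 3.475 to 7.998 per degree of freedom. After filterByExpr (15160 genes) and TMM scaling, groups were compared in R 4.3.3 with edgeR 4.0.16 (robust quasi-likelihood fit and F test), with Benjamini-Hochberg adjustment over all genes tested and a threshold of 0.05. SE is the absolute log2 fold change over the square root of F. The code was tested on simulated data. Alternatives were DESeq2 1.42.0, limma-voom (limma 3.58.1), size factors of the DESeq2 type, scaling by library totals, no filter and a stricter filter (mean of at least 1 CPM and 50 counts), a replicate block, a GC content offset (spline with 5 degrees of freedom) and each library left out. Counts near 0 carry counting error.

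The genes and lists were chosen with earlier results of these data known. Every one of the 31 genes is named, with the 3 largest rises and falls among 36 other sterol genes; other members of that list named in the text were chosen after their values were seen.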

Additional observations from a re-analysis of the deposited data

How the results depend on the processing

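Of 23 called genes 18 kept their direction and their call in every alternative that gave a value; ACAT2, SQLE, HSD17B7, DHCR7 and SREBF1 did not. limma-voom, the stricter filter (which left out TM7SF2) and the replicate block changed no call among the 30 genes. With the replicate block 5955 genes were higher and 6131 lower, and 14 and 9 of the 30; same-numbered libraries did not deviate together (correlations 0.024, -0.012 and 0.075), so the numbers were not taken as pairs.

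With library totals 5 enzymes were higher, against 8. MVK stood at -0.217, MVD at -0.115, FDFT1 at -0.141, EBP at -0.091 and ABCA1 at -0.084, each with the sign opposite to that under TMM. The medians moved to -0.115 for the early mevalonate enzymes, -0.116 for the squalene and sterol enzymes, 0.232 for SREBP and its regulators, 0.881 for sterol movement and -0.208 for efflux and LXR genes.

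With the GC content offset 1 gene was at least 2-fold lower, against 4. HSD17B7 (-0.018), DHCR7 (0.045), SREBF1 (0.352), NR1H2 (0.572), KRT18 (0.141) and KRT19 (0.02) changed sign. The medians moved to 0.565, 0.959, 0.827 and 0.295 for the early enzymes, regulators, movement and efflux genes. MVK, with no filter, stood at -0.001.

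Leaving out 1 library gave 13 to 15 higher genes and 9 lower, 7 to 9 higher and 6 lower enzymes, and 3 to 4 genes at least 2-fold lower, with MVK from -0.046 (without control replicate 1) to 0.103. The causes were not tested. With 3 libraries a group, a difference that missed the threshold is not shown to be absent.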
